A study of Homo sapiens with 6 samples.

Results

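HOX genes encode homeodomain transcription factors that tell cells where they lie along the body axis. They sit in 4 clusters, HOXA on chromosome 7, HOXB on chromosome 17, HOXC on chromosome 12 and HOXD on chromosome 2, and genes with the same number in different clusters are paralogues that descend from 1 ancestral gene. Low-numbered genes act towards the head and high-numbered genes towards the tail, trithorax proteins keep the clusters open and Polycomb proteins keep them silent, and breast epithelium keeps using part of the set in adult life. The members described here are the transcript clusters (rows) of an Affymetrix Human Gene 1.0 ST array whose platform symbols include a numbered HOXA, HOXB, HOXC or HOXD gene, antisense genes left out. They are 28 of 21214 rows with a gene symbol and stand for 29 of the 39 human HOX genes: 10 of 10 in HOXB, 9 of 9 in HOXC, 9 of 9 in HOXD and 1 of 11 in HOXA. The 1 HOXA row is HOXA2, and the other HOXA genes were not analysed here. HOXC4 and HOXC6 share 1 row and cannot be told apart.

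Transcripts were measured on 6 arrays, 2 for each of 3 human breast cancer lines, grown in the same RPMI-1640 medium with serum. No drug or genetic change is named for any line. MDA-MB-231, the parental line, is a mesenchymal, triple-negative line. Its derivatives 231BoM-1833 (the bone line) and 231BrM-2a (the brain line) were selected for metastasis to those organs, and with 1 line for each organ, the organ and the line cannot be told apart. In all 3 lines, cells lacking CD24 and carrying CD44 and ESA (encoded by EPCAM) were taken by magnetic sorting, the surface profile of breast cancer stem cells. The labels call the replicates biological without saying whether they came from separate cultures, so each p-value rests on a spread between arrays that could be technical in part. Values are log2 expression values after RMA (background correction, quantile normalization and probe summary), differences are log2 change ± SE, means carry the SD (n = 2), and each adjusted p comes from limma with Benjamini-Hochberg adjustment over the 21214 rows, called below 0.05. Because probes differ between rows, a value is compared between lines within a row and not between genes. In bulk RNA, fewer expressing cells and less RNA per cell cannot be told apart.

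The arrays had median log2 values between 6.58 and 6.64. Over the 6 arrays, 6 mesenchymal genes including VIM and CAV1 lay between 10.26 and 13.09 and 6 luminal genes between 4.48 (PGR) and 9.25 (ERBB2), values that describe each row and are no check of the labels. Between lines, VIM was called lower (-0.37 ± 0.10, adjusted p = 0.0294) and ERBB2 higher (0.45 ± 0.11, adjusted p = 0.0235) in 231BrM-2a than in MDA-MB-231, both lost without any 1 of the 4 arrays compared (0.104 to 0.145 and 0.064 to 0.159). VIM was the 1 call among the 6 mesenchymal genes and ERBB2 the 1 call among the 6 luminal genes in that comparison. Of all rows, 8.59% were called lower and 10.5% higher there. Changes ran from -0.41 to 0.26 over the mesenchymal genes and from -0.35 to 0.45 over the luminal genes, so members of each list went both ways. Of the sort markers, CD44 lay between 11.45 and 12.17, and the bone-line replicates stood apart at 8.32 and 7.28 for EPCAM and 6.49 and 5.76 for CD24. CD44 was lower in the brain line than in the bone line (-0.54 ± 0.13, adjusted p = 0.014), lost without bone-line replicate 1 or brain-line replicate 1 or 2 (0.0565, 0.074 and 0.0704).

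Of 9 measured markers of leukocytes, red cells, endothelium and fibroblasts, levels ran from 3.60 (PTPRC) to 11.65 (CD68), and their summed log2 level was 59.3 to 59.9 in the parental line, 58.6 to 58.7 in the bone line and 60.5 to 60.8 in the brain line. Against the parent, 2 were called higher and 2 lower in the brain line, beside 10.5% and 8.59% of all rows. PDGFRB (1.70 ± 0.13, adjusted p = 6.54e-05) and DCN (0.98 ± 0.16, adjusted p = 0.00296) of fibroblasts were higher. CD14 of monocytes (-0.50 ± 0.12, adjusted p = 0.0195) and PECAM1 of endothelium (-0.38 ± 0.11, adjusted p = 0.0382) were lower. ACTA2, also of fibroblasts, was not called there, with means of 7.93 in the parental and 7.82 in the brain line. In the bone line against the parent, 1 was called higher and 2 lower, beside 8.43% and 7.38% of all rows. CD14 was higher (0.88 ± 0.12, adjusted p = 0.00219), and DCN (-0.79 ± 0.16, adjusted p = 0.0122) and ACTA2 (-0.65 ± 0.14, adjusted p = 0.017) were lower. PDGFRB was not called there, with means of 6.2 in the parental and 6.35 in the bone line. The calls lost when 1 array was left out were CD14 in the brain line without parental replicate 1 or 2 or brain-line replicate 1 (0.113, 0.0711 and 0.133), PECAM1 without any 1 of the 4 arrays compared (0.081 to 0.215), and DCN (0.0838 and 0.0533) and ACTA2 (0.106 and 0.066) in the bone line without parental replicate 1 or bone-line replicate 2. The part of these and the sort markers in the HOX results was not tested.

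In 231BrM-2a, 4 genes of the HOXB cluster were called lower than in MDA-MB-231: HOXB9, HOXB6, HOXB5 and HOXB3. They are 14.3% of the 28 HOX rows, beside 8.59% of all rows called lower and 19.0% called in either direction. In 231BoM-1833, 0 of the 28 HOX rows passed the limma test, with 5 at an unadjusted p under 0.05, where 15.8% of all rows were called. HOXB9 had the largest change of the 28 rows in both comparisons with 231BrM-2a and was the 1 gene called under every alternative tried. No HOX row was called higher in any of the 3 comparisons. Of all rows, 8.43%, 10.5% and 12.5% were called higher in the bone-parent, brain-parent and brain-bone comparisons. The 3 comparisons share their arrays pairwise and so are not independent of each other.

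HOXB9, a posterior-type HOX gene known for its part in mammary gland development, read 9.99 and 9.90 on the MDA-MB-231 arrays, 9.96 and 10.01 on the 231BoM-1833 arrays, and 8.85 and 8.79 on the 231BrM-2a arrays. Both brain-line arrays lay more than 1 log2 unit below all 4 others, and the parental and bone-line arrays overlapped. The parental mean was 9.94 ± 0.066, the bone-line mean 9.98 ± 0.037 and the brain-line mean 8.82 ± 0.0435. HOXB9 was 2.18-fold lower in 231BrM-2a than in MDA-MB-231 (-1.12 ± 0.10, adjusted p = 0.000137) and 2.24-fold lower than in 231BoM-1833 (-1.16 ± 0.10, adjusted p = 7e-05). Of the 21214 rows, 160 had a lower log2 change than HOXB9 in 231BrM-2a against MDA-MB-231, and 0.999% were called and at least 2-fold lower, beside 2.69% in 231BrM-2a against 231BoM-1833. Between 231BoM-1833 and MDA-MB-231 its difference was 0.040 ± 0.10, with a 95% interval from -0.19 to 0.27 (adjusted p = 0.818).

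**Figure D1:**
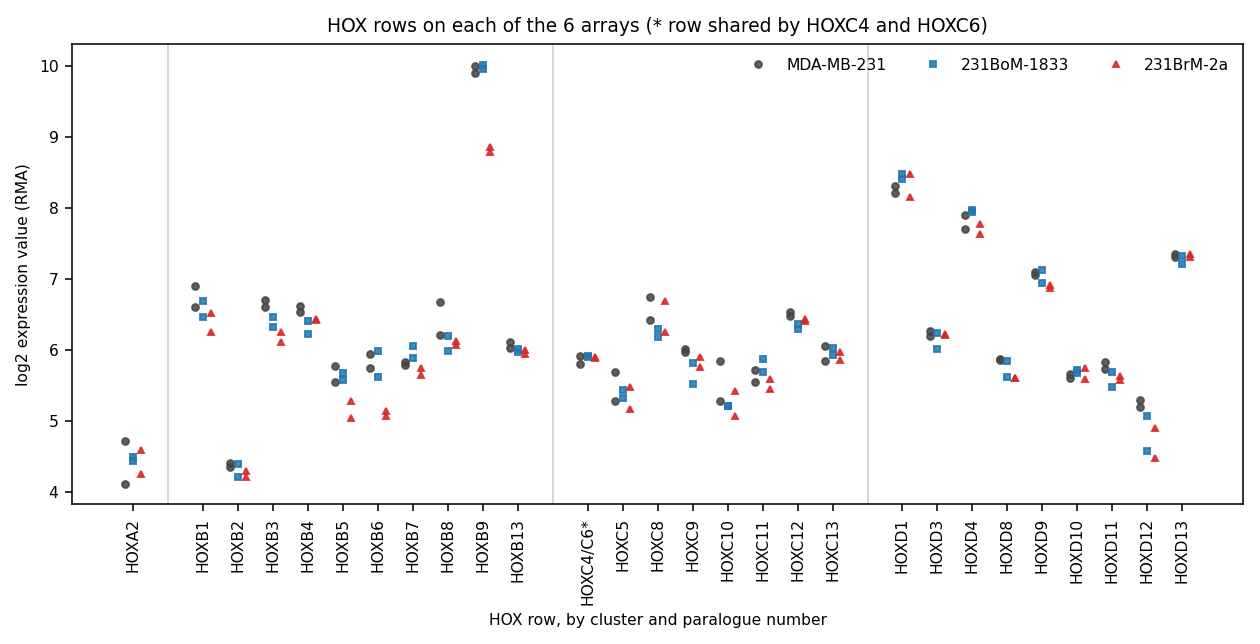
Log2 RMA value (vertical axis) of the 28 HOX rows on each of the 6 arrays, ordered by cluster and paralogue number, with circles for MDA-MB-231, squares for 231BoM-1833 and triangles for 231BrM-2a. HOXB9 drops from between 9.90 and 10.01 in the other lines to 8.85 and 8.79 in 231BrM-2a, while most rows overlap between lines.

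HOXB6, a central-type member, read 5.94 and 5.74 in the parental line, 5.98 and 5.61 in the bone line, and 5.14 and 5.06 in the brain line. The brain-line arrays were again the lowest and did not overlap the other 4. HOXB6 was 1.67-fold lower than in MDA-MB-231 (-0.74 ± 0.14, adjusted p = 0.00663) and 1.62-fold lower than in 231BoM-1833 (-0.69 ± 0.14, adjusted p = 0.0068). The first call was lost without parental replicate 1 (adjusted p = 0.057) or brain-line replicate 2 (0.0527), the second without brain-line replicate 2 (0.0516).

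HOXB5, its neighbour in the cluster, read 5.77 and 5.54 in the parental line, 5.67 and 5.58 in the bone line, and 5.04 and 5.28 in the brain line. The brain line was lower than both other lines without overlap, with changes of -0.49 ± 0.13 against MDA-MB-231 and -0.46 ± 0.13 against 231BoM-1833 (adjusted p = 0.0266 and 0.0279). Against MDA-MB-231 the call was lost without parental replicate 1 (adjusted p = 0.158), parental replicate 2 (0.051) or brain-line replicate 1 (0.174). Against 231BoM-1833 it was lost without bone-line replicate 1 (0.0941), bone-line replicate 2 (0.0526) or brain-line replicate 1 (0.195). Testing also the rows without a symbol ended both calls (0.0756 and 0.0722).

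HOXB3, an anterior-type member, read 6.60 and 6.70 in the parental line, 6.32 and 6.45 in the bone line, and 6.25 and 6.11 in the brain line. The 3 lines did not overlap, with 231BoM-1833 between the other lines. It was lower in 231BrM-2a than in MDA-MB-231 (-0.47 ± 0.11, adjusted p = 0.0185), but each of the 4 arrays of these lines was needed for the call (adjusted p = 0.057 and 0.128 without parental replicate 1 and 2, and 0.0518 and 0.138 without brain-line replicate 1 and 2). Testing also the rows without a symbol gave 0.0534. The difference between the derivatives was -0.20 ± 0.11 (95% interval -0.46 to 0.050, adjusted p = 0.242).

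**Figure D2:**
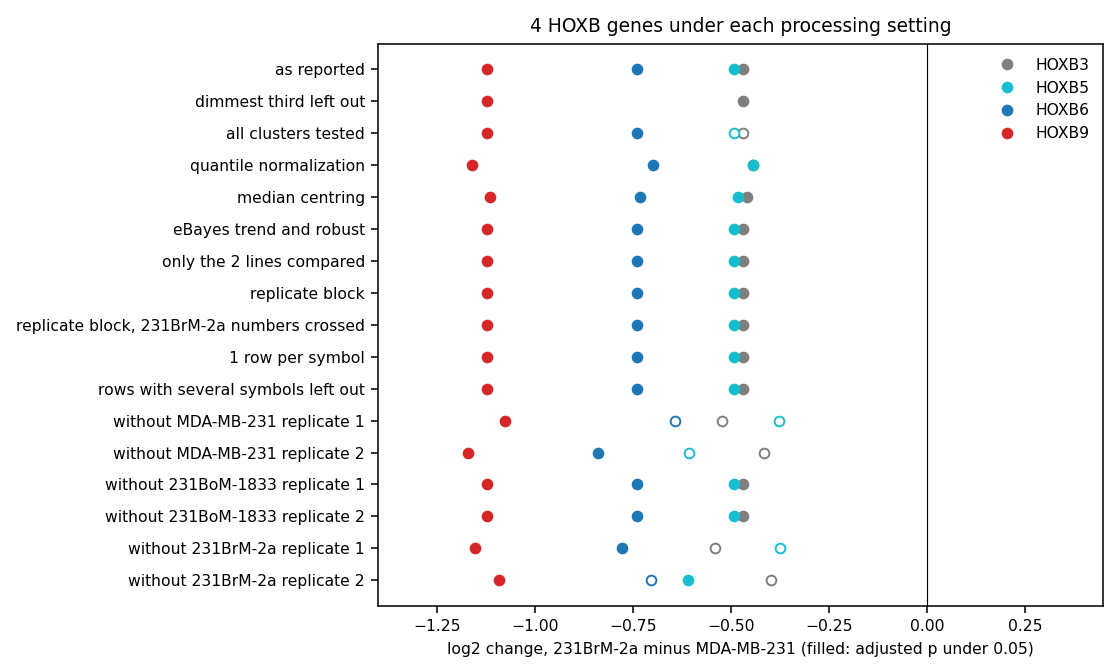
Log2 change of HOXB3, HOXB5, HOXB6 and HOXB9 in 231BrM-2a against MDA-MB-231 (horizontal axis) under the reported setting and 16 alternatives (vertical axis), filled where the adjusted p is under 0.05. HOXB9 stays filled throughout, between -1.17 and -1.08, while the other genes lose the call when single arrays of these lines are left out. HOXB5 and HOXB6 have no point where the dimmest 33.3% of rows were left out, since they were among those.

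The other 6 HOXB genes did not pass the test in any comparison. HOXB7, an activator of growth factor genes in breast cancer cells, read 5.82 and 5.79 in the parental line, 5.88 and 6.05 in the bone line, and 5.74 and 5.65 in the brain line. Its brain-line values were the lowest, but the difference from 231BoM-1833 was -0.27 ± 0.11 (adjusted p = 0.106). HOXB8 read 6.20 and 6.68 in MDA-MB-231 and between 5.98 and 6.19 in the derivatives, with changes of -0.36 ± 0.16 and -0.34 ± 0.16 in 231BoM-1833 and 231BrM-2a (adjusted p = 0.154 and 0.168). The brain-line change of HOXB8 was called without parental replicate 1, when HOXB8 and HOXB9 were the 2 HOX calls. HOXB1, the member nearest the head end, had a change of -0.36 ± 0.14 in 231BrM-2a against MDA-MB-231 (adjusted p = 0.111). HOXB2, HOXB4 and HOXB13 had changes of -0.15 to -0.096 there.

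By cluster, 4 of 10 HOXB rows, 0 of 8 HOXC rows, 0 of 9 HOXD rows and the HOXA2 row (0 of 1) were called lower in 231BrM-2a against MDA-MB-231. Over all 28 rows this is 14.3%, where 8.59% of all 21214 rows were called lower and 19.0% were called in either direction. Most HOX rows are dim, 24 of 28 with a mean below 7, and of all named rows that dim 9.56% were called, 4.67% lower. All 4 calls were lower and lay in HOXB, but the test was two-sided and the direction was seen only in the result. The HOX share of 14.3% was above the 8.59% called lower and below the 19.0% called in either direction. HOXB9, with a mean of 9.58, is not a dim row, so 14.3% and the shares of the dim rows are not like for like. All 10 HOXB rows had a log2 change below 0, with a median of -0.35, against -0.11 in HOXC, -0.10 in HOXD and -0.050 over all named rows. A change below 0 was common: 57.9% of all named rows and 67.2% of those with a mean below 7 had one, and 25 of 28 HOX rows did. The HOXB median was -0.18 without parental replicate 2. Between the derivatives, 3 of 10 HOXB rows (HOXB9, HOXB6 and HOXB5) and 0 of the other 18 HOX rows were called, all lower in 231BrM-2a. This is 10.7% of the 28 rows, beside 11.0% of all rows called lower and 23.5% called in either direction. Of the rows with a mean below 7, to which HOXB9 does not belong, 6.23% were called lower and 12.1% in either direction.

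**Figure D3:**
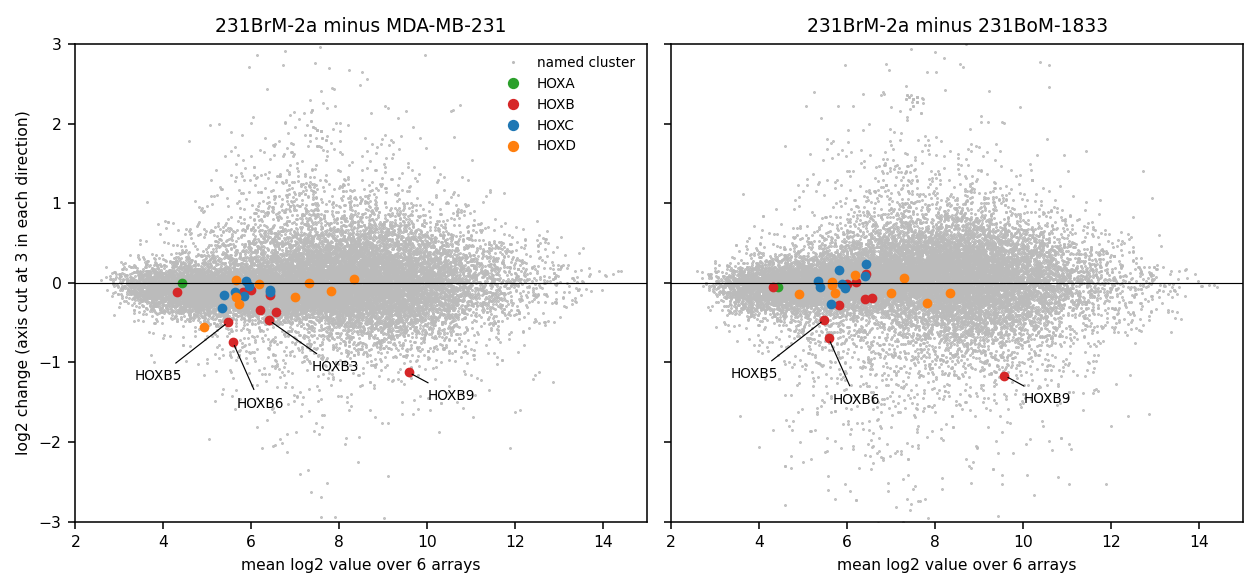
Log2 change (vertical axis, drawn from -3 to 3) against mean log2 value over the 6 arrays (horizontal axis) for all 21214 named rows (grey) and the 28 HOX rows (coloured by cluster), in 231BrM-2a against MDA-MB-231 (left) and against 231BoM-1833 (right). The called HOX rows are labelled and all belong to HOXB. HOXB9 lies near -1.12 and -1.16, and most other HOX rows lie within the grey band near 0.

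The calls lay in all 3 position classes. In the brain line against the parental line, 1 of 6 anterior rows (paralogue groups 1 to 3), 2 of 10 central rows (4 to 8) and 1 of 12 posterior rows (9 to 13) were called. These are 16.7%, 20.0% and 8.33% of the classes, beside 8.59% of all rows called lower and 19.0% called in either direction. Median changes were -0.065, -0.15 and -0.14, beside -0.050 over all named rows. A difference between the classes was not tested. Along HOXB the called genes did not form 1 unbroken run: HOXB4 lay between HOXB3 and HOXB5, and HOXB7 and HOXB8 lay between HOXB6 and HOXB9, without a call. The paralogues of HOXB9 on other chromosomes, HOXC9 and HOXD9, had changes of -0.16 ± 0.13 (95% interval -0.45 to 0.12) and -0.18 ± 0.11 (-0.42 to 0.067) in the same comparison (adjusted p = 0.407 and 0.291). The differences between HOXB9 and its paralogues were not tested.

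Beyond HOXB9, the rows with the highest mean in their clusters were HOXD1, HOXC8 and, as the only HOXA row, HOXA2. HOXD1, an anterior member, read 8.31 and 8.21 in the parental line, 8.47 and 8.40 in the bone line, and 8.14 and 8.47 in the brain line. The brain-line arrays spanned those of the parental line, and the change there was 0.044 ± 0.13 (95% interval -0.25 to 0.33, adjusted p = 0.844). HOXC8, a central member, read 6.42 and 6.74, 6.29 and 6.18, and 6.69 and 6.24 in the same order of lines. Its bone-line arrays were below those of the parental line, but the change of -0.35 ± 0.16 did not pass (adjusted p = 0.178). HOXA2, which patterns the hindbrain and the second pharyngeal arch, ranged from 4.11 to 4.71 within MDA-MB-231 alone, a span that held the arrays of both derivatives.

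The 8 HOXC rows lay between 5.06 and 6.74 on the 6 arrays, and their changes in 231BrM-2a against MDA-MB-231 ran from -0.32 (HOXC10) to 0.029 (the HOXC4 and HOXC6 row), with adjusted p from 0.272 to 0.876.

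The HOXD cluster, whose high-numbered genes shape limbs and digits, had 0 of 9 rows called in each of the 3 comparisons. Of all rows, 15.8%, 19.0% and 23.5% were called in the bone-parent, brain-parent and brain-bone comparisons. Of those with a mean below 7, 8.73%, 9.56% and 12.1% were called, so few calls would be looked for among 9 rows. HOXD13 read 7.35 and 7.30 in the parental line, 7.21 and 7.32 in the bone line, and 7.34 and 7.31 in the brain line, with 95% intervals from -0.29 to 0.17 and from -0.23 to 0.23 for the derivatives against the parent. HOXD12 had the largest change in this cluster and read 5.29 and 5.19 in the parental line, 5.07 and 4.58 in the bone line, and 4.48 and 4.89 in the brain line. All 4 derivative arrays lay below both parental arrays, but the changes of -0.42 ± 0.18 and -0.56 ± 0.18 did not pass (adjusted p = 0.151 and 0.0644). The brain-line change of HOXD12 was called with only the 2 lines compared in the fit, without either bone-line array, and with the crossed replicate block. HOXD4 had a change of -0.25 ± 0.11 between the derivatives (adjusted p = 0.158).

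The comparison of 231BoM-1833 with MDA-MB-231 called 0 of 28 HOX rows, where 15.8% of all named rows were called, 8.43% higher and 7.38% lower. At an unadjusted limma p under 0.05 there were 5: HOXB3, HOXB4, HOXB8, HOXC9 and HOXD12. Their log2 changes lay between -0.42 and -0.27, and their adjusted p between 0.116 and 0.154. Over the 28 rows the log2 changes ran from -0.42 to 0.18 with a median of -0.075, beside -0.052 over all named rows, and 19 of 28 were below 0. The 95% intervals of all 28 lay between -0.83 and 0.48, so a 2-fold difference in array value in either direction lay outside each of them. They bound the array value and not the transcript level, and 24 of the 28 rows have a mean below 7. HOXD12 was called without bone-line replicate 1 and HOXC9 without bone-line replicate 2, 1 row in each case.

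**Figure D4:**
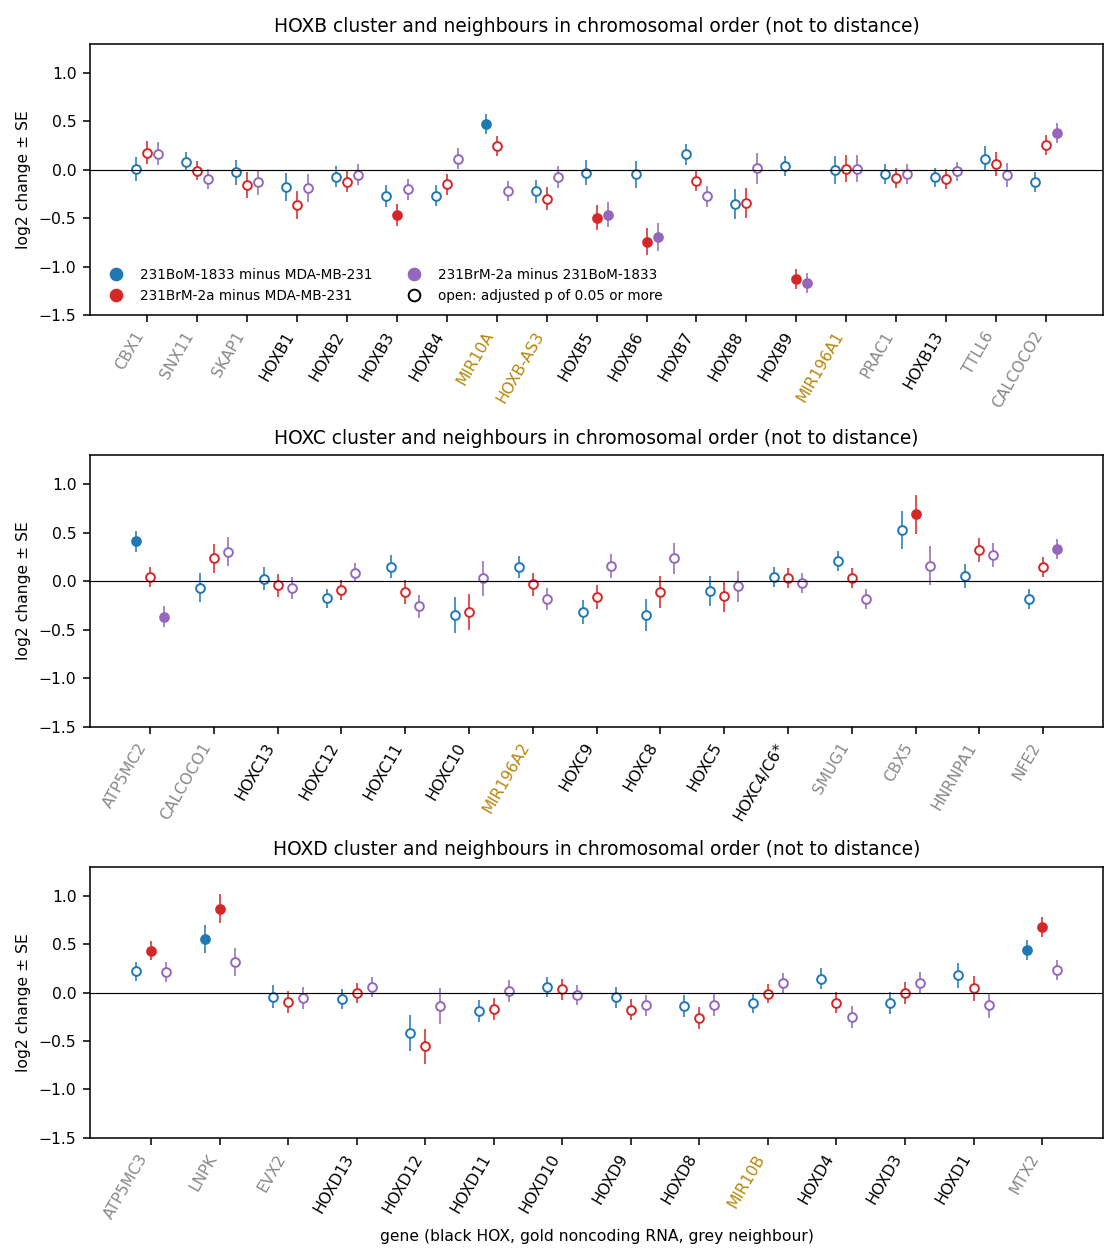
Log2 change ± SE (vertical axis) of the HOX rows, noncoding RNAs and flanking genes of HOXB, HOXC and HOXD in chromosomal order, evenly spaced, for 231BoM-1833 against MDA-MB-231 (blue), 231BrM-2a against MDA-MB-231 (red) and 231BrM-2a against 231BoM-1833 (purple), filled where the adjusted p is under 0.05. Filled points below 0 lie at HOXB3, HOXB5, HOXB6 and HOXB9 among the HOX rows, and filled points above 0 lie at LNPK, ATP5MC3 and MTX2 on the sides of HOXD.

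Of the 6 measured genes flanking HOXB, 0 were called lower by limma in any comparison (0 also at an unadjusted p under 0.05), and 1, CALCOCO2, an autophagy receptor gene, was called higher in 231BrM-2a than in 231BoM-1833 (0.38 ± 0.10, adjusted p = 0.0254). That call was lost without bone-line replicate 2 or brain-line replicate 1 or 2 (0.0861, 0.105 and 0.126). PRAC1, between HOXB9 and HOXB13, had a change of -0.089 in 231BrM-2a against MDA-MB-231 (adjusted p = 0.591), SKAP1, an adaptor gene beyond HOXB1, of -0.16 (adjusted p = 0.441), TTLL6, a tubulin-modifying enzyme gene beyond HOXB13, of 0.063 (adjusted p = 0.77), and CALCOCO2 of 0.26 (adjusted p = 0.117). CBX1 and SNX11, farther out, had changes of 0.18 and -0.0095 (adjusted p = 0.345 and 0.961). Of 20 measured genes flanking the 4 clusters, 4 were called higher and 0 lower in that comparison, where 10.5% of all rows were called higher and 8.59% lower. They were LNPK, which encodes an endoplasmic reticulum junction protein (0.87 ± 0.15, adjusted p = 0.00383), MTX2, a mitochondrial import gene (0.68 ± 0.10, adjusted p = 0.00207), ATP5MC3, a subunit gene of the mitochondrial ATP synthase (0.43 ± 0.10, adjusted p = 0.0169), and CBX5, which encodes a heterochromatin protein (0.69 ± 0.20, adjusted p = 0.0403).

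LNPK and ATP5MC3 flank HOXD on its HOXD13 side and MTX2 on its HOXD1 side. LNPK read 8.97 and 9.0 in the parental line, 9.77 and 9.31 in the bone line, and 9.80 and 9.91 in the brain line, and MTX2 read 8.99 and 8.92, 9.41 and 9.38, and 9.60 and 9.66. Both genes were higher on every derivative array than on every parental array. In 231BoM-1833 they were also called against MDA-MB-231 (0.55 ± 0.15 and 0.44 ± 0.10, adjusted p = 0.0354 and 0.0205), calls that were lost without parental replicate 1, parental replicate 2 or bone-line replicate 1 (adjusted p = 0.135, 0.146 and 0.119 for LNPK, 0.0725, 0.13 and 0.053 for MTX2), and for LNPK also without either 231BrM-2a array (0.0576 each). Without bone-line replicate 1 the LNPK change was 0.32. ATP5MC2, a related subunit gene beside HOXC, was the third call there (0.41 ± 0.11, adjusted p = 0.0329), lost without 5 of the 6 arrays, that is all but bone-line replicate 1 (adjusted p = 0.051 to 0.157). In 231BrM-2a the calls of LNPK and MTX2 held without any 1 array. The call of ATP5MC3 was lost without any 1 of the 4 arrays compared (adjusted p = 0.0667 to 0.107), and that of CBX5 without parental replicate 1, parental replicate 2 or brain-line replicate 2 (0.162, 0.137 and 0.243). Between the derivatives, 2 of the 20 were called higher and 3 lower in 231BrM-2a, beside 12.5% and 11.0% of all rows. Besides CALCOCO2, the largest changes were those of the HOXA flanks SKAP2, an adaptor gene (-0.49 ± 0.14, adjusted p = 0.0363), and TAX1BP1, an autophagy receptor gene (-0.41 ± 0.11, adjusted p = 0.0235). SKAP2 was not called without any 1 array but bone-line replicate 2 (0.0577 to 0.203), its change being -0.30 without bone-line replicate 1, nor TAX1BP1 without bone-line replicate 1 or brain-line replicate 1 or 2 (0.0918, 0.0754 and 0.141).

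Noncoding genes inside the clusters include microRNAs, which bind messengers through the seed, bases 2 to 8. Of 22 noncoding genes listed, 6 had a row: MIR10A and MIR196A1 and the antisense RNA HOXB-AS3 in HOXB, MIR196A2 in HOXC, MIR10B in HOXD and HOXA-AS2 in HOXA. The mature sequences of the HOXB microRNAs are shown because MIR10A, beside HOXB4, was the 1 noncoding call and MIR196A1 lies next to HOXB9. They are RefSeq sequences (GRCh38.p14), with the seed in capitals, at chr17:48579904-48579926 for miR-10a-5p and chr17:48632532-48632553 for miR-196a-5p, both on the minus strand.
miR-10a-5p: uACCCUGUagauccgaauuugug
miR-196a-5p: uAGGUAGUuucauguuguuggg
MIR196A2 on chromosome 12 gives the same miR-196a-5p sequence, which is known to target HOXB8.

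Of the 6 noncoding rows, 1 was called higher in 231BoM-1833 than in MDA-MB-231, beside 8.43% of all rows. This was MIR10A (0.47 ± 0.10, adjusted p = 0.0174), the 1 noncoding call in any comparison. It read 2.89 and 2.90 in the parental line, 3.41 and 3.32 in the bone line, and 3.09 and 3.20 in the brain line. The 3 lines did not overlap, with the bone line highest. These values are near the bottom of the scale, probes for a precursor do not measure the mature microRNA, and the call was lost without parental replicate 1, parental replicate 2 or bone-line replicate 1 (adjusted p = 0.0822, 0.0978 and 0.0533). MIR196A1, next to HOXB9, read 6.05 and 6.26, 6.0 and 6.31, and 6.27 and 6.07 in the order parental, bone and brain line. The arrays of the 3 lines overlapped, with a change of 0.011 ± 0.14 in 231BrM-2a against MDA-MB-231 (adjusted p = 0.969). HOXB-AS3, antisense to the stretch of HOXB5 and HOXB6, had a change of -0.30 ± 0.11 there (adjusted p = 0.106).

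HOX proteins bind DNA with TALE homeodomain partners. Of 7 measured TALE genes, 2 were called higher and 0 lower in 231BrM-2a against MDA-MB-231, beside 10.5% and 8.59% of all rows. PBX3, a direct HOX partner, read 7.95 and 7.93 in the parental line, 7.96 and 7.72 in the bone line, and 8.55 and 8.5 in the brain line. Its brain-line arrays were above all others (0.59 ± 0.11, adjusted p = 0.00724, and 0.69 ± 0.11 against 231BoM-1833, adjusted p = 0.00243). The call against the parent was lost without parental replicate 2 (adjusted p = 0.057) or brain-line replicate 1 (0.0544). MEIS1, a partner of posterior HOX proteins, rose by 0.52 ± 0.13 (adjusted p = 0.0201), a call lost without parental replicate 1 (0.0569), parental replicate 2 (0.14) or brain-line replicate 2 (0.159). In 231BoM-1833 against MDA-MB-231, 0 of 7 were called by limma, where 15.8% of all rows were called. At an unadjusted p under 0.05 there were 2.

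Among 10 measured activators of HOX chromatin, 2 were called higher and 1 lower in 231BrM-2a against MDA-MB-231, where 19.0% of all rows were called. KDM6A, a demethylase that removes the Polycomb mark, read 7.24 and 7.05 in the parental line, 7.44 and 7.18 in the bone line, and 8.02 and 8.10 in the brain line. It was 1.88-fold higher in the brain line than in the parent (0.91 ± 0.13, adjusted p = 0.0014), without overlap with the other lines. WDR5, a core subunit of histone methyltransferase complexes, was lower in both derivatives (-0.65 ± 0.11 in 231BoM-1833, adjusted p = 0.00501, and -0.46 ± 0.11 in 231BrM-2a, adjusted p = 0.0158), the latter call lost without any 1 of the 4 arrays compared (adjusted p = 0.0634 to 0.104). RBBP5, another such subunit, rose in 231BrM-2a (0.44 ± 0.13, adjusted p = 0.0378), lost likewise (0.0927 to 0.196). KMT2A, the MLL methyltransferase that maintains HOX expression, read 9.17 and 8.94 in the parental line, 9.77 and 9.72 in the bone line, and 9.15 and 9.16 in the brain line. It was highest in the bone line (0.69 ± 0.11 against MDA-MB-231, adjusted p = 0.00521, lost without parental replicate 2 at 0.0536), and a dimmer KMT2A row was not called. Between the derivatives, 2 of the 10 were called higher and 1 lower in 231BrM-2a, beside 12.5% and 11.0% of all rows. KMT2A was lower (-0.59 ± 0.11, adjusted p = 0.0053) and KDM6A (0.75 ± 0.13, adjusted p = 0.00269) and MEN1, which encodes the partner menin, higher in 231BrM-2a. The MEN1 difference of 0.42 ± 0.11 (adjusted p = 0.0214) was not called without bone-line replicate 1, brain-line replicate 1 or brain-line replicate 2 (0.0716, 0.0866 and 0.115).

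Of 13 measured Polycomb genes, 2 were called higher and 2 lower in 231BoM-1833, and 1 higher and 2 lower in 231BrM-2a, each against MDA-MB-231, where 15.8% and 19.0% of all rows were called. CBX6 (-0.75 ± 0.10, adjusted p = 0.00223) and CBX2 (-0.61 ± 0.11, adjusted p = 0.00805), which encode readers of the Polycomb mark, were lower in 231BoM-1833, the latter call lost without parental replicate 2 (0.0753). PHC3, a Polycomb complex subunit gene with 2 rows here, was higher there by its brighter row (0.45 ± 0.13, adjusted p = 0.0442), lost without any 1 array but parental replicate 1 (0.0727 to 0.265), its change being 0.28 without parental replicate 2. In 231BrM-2a, PHC3 (0.55 ± 0.13, adjusted p = 0.0164) was higher and JARID2, an accessory subunit (-0.54 ± 0.12, adjusted p = 0.0131), and RING1, a ubiquitin ligase subunit (-0.38 ± 0.11, adjusted p = 0.0476), were lower. PHC3 was not called without parental replicate 2, brain-line replicate 1 or brain-line replicate 2 (0.127, 0.0749 and 0.0957), JARID2 without parental replicate 1, parental replicate 2 or brain-line replicate 1 (0.0869, 0.0559 and 0.103), and RING1 without any 1 of the 4 arrays compared (0.141 to 0.207). Between the derivatives, 4 of the 13 were called higher and 2 lower in 231BrM-2a, beside 12.5% and 11.0% of all rows. By the largest changes among these, JARID2 was lower (-0.54 ± 0.12, adjusted p = 0.0101) and EZH1, a methyltransferase gene (0.51 ± 0.14, adjusted p = 0.0241), and CBX6 (0.50 ± 0.10, adjusted p = 0.00781) were higher in 231BrM-2a. These were lost without brain-line replicate 1 (0.0874) for JARID2, without either brain-line replicate (0.0521 and 0.0503) for CBX6, and for EZH1 without any 1 of the 4 arrays compared (0.05 to 0.16). EZH2, the methyltransferase that sets the Polycomb mark, had changes of -0.075 and -0.12 (adjusted p = 0.681 and 0.505).

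**Figure D5:**
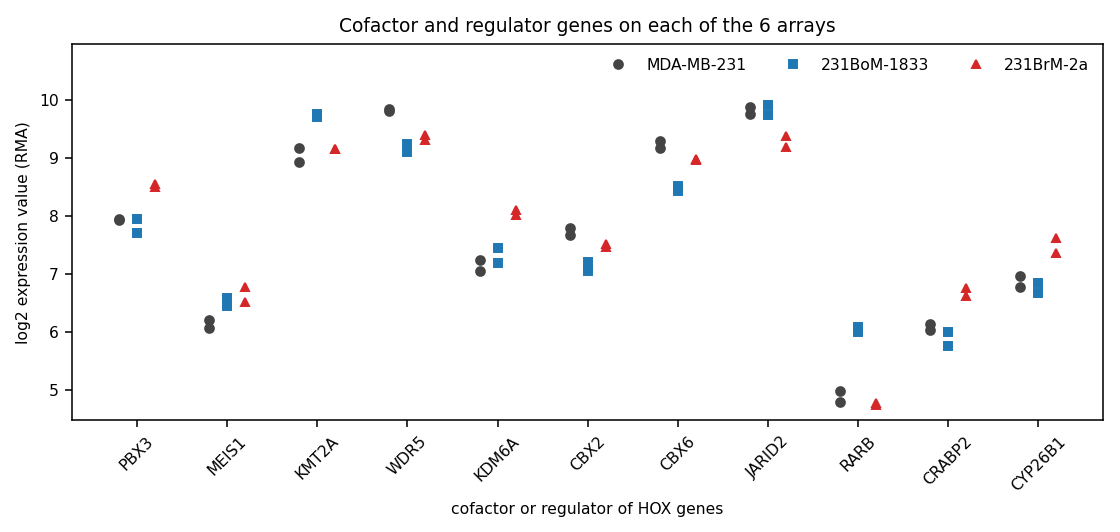
Log2 RMA value (vertical axis) on each of the 6 arrays of 11 genes that work with or regulate HOX genes (horizontal axis), with circles for MDA-MB-231, squares for 231BoM-1833 and triangles for 231BrM-2a. PBX3 and KDM6A are highest in 231BrM-2a, KMT2A and RARB in 231BoM-1833, and CBX6 and CBX2 are lowest in 231BoM-1833.

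Retinoic acid turns on HOX genes, most readily the low-numbered ones. Of 15 measured genes of retinoid signalling and the CDX factors, 2 were called higher and 1 lower in 231BoM-1833 against MDA-MB-231. In 231BrM-2a against MDA-MB-231, 3 were called higher and 1 lower. Of all rows, 15.8% and 19.0% were called in these comparisons. Between the derivatives, 4 of the 15 were called higher and 1 lower in 231BrM-2a, beside 12.5% and 11.0% of all rows. RARB, a retinoic acid receptor gene that is itself induced by retinoic acid, read 4.98 and 4.78 in the parental line, 6.0 and 6.08 in the bone line, and 4.77 and 4.73 in the brain line. It was 2.24-fold higher in the bone line than in the parent (1.16 ± 0.11, adjusted p = 0.000355) and 2.45-fold higher than in the brain line (adjusted p = 6e-05). ALDH1A3, which encodes an enzyme that makes retinoic acid, was higher (0.50 ± 0.13, adjusted p = 0.0275) and RXRA, a partner receptor gene, lower (-0.40 ± 0.10, adjusted p = 0.0302) in the bone line. ALDH1A3 was not called without parental replicate 1, parental replicate 2 or bone-line replicate 2 (0.125, 0.113 and 0.105), nor RXRA without any 1 of the 6 arrays (0.0524 to 0.165). The 6 anterior HOX rows had changes from -0.27 (HOXB3) to 0.18 (HOXD1) in the bone line, 0 of them called by limma and 1 at an unadjusted p under 0.05. In 231BrM-2a, CRABP2, a retinoic acid carrier gene (0.60 ± 0.12, adjusted p = 0.0085), and CYP26B1, which encodes an enzyme that degrades retinoic acid (0.62 ± 0.13, adjusted p = 0.0115), were higher than in MDA-MB-231, as was ALDH1A3 (0.47 ± 0.13, adjusted p = 0.0312, lost without any 1 of the 4 arrays compared at 0.0651 to 0.196). CRABP2 was not called without parental replicate 2 or brain-line replicate 2 (0.0744 and 0.0767), and CYP26B1 without parental replicate 1 or brain-line replicate 1 (0.0855 and 0.0937), but both were called against 231BoM-1833 with any 1 array left out (0.82 ± 0.12 and 0.73 ± 0.13 with all 6).

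Genes that earlier work placed under single HOX proteins were looked up beside them. Of 5 measured, 1 was called higher in 231BrM-2a against MDA-MB-231, where 10.5% of all rows were called higher. In 231BoM-1833 against MDA-MB-231, 1 was called lower, beside 7.38% of all rows. ITGB3, an integrin chain gene reported as a target of HOXD3, read 8.35 and 8.12 in the parental line, 8.61 and 8.26 in the bone line, and 10.17 and 10.75 in the brain line, which is 4.67-fold higher in the brain line than in the parent (adjusted p = 0.000117). HOXD3 itself had a change of -0.0091 there, with a 95% interval from -0.27 to 0.25 (adjusted p = 0.967). EPHB4, an ephrin receptor gene reported under HOXA9, was lower in 231BoM-1833 (-0.64 ± 0.14, adjusted p = 0.0157), lost without parental replicate 1 (0.0997) or bone-line replicate 2 (0.0648). Between the derivatives, ITGB3 (2.02 ± 0.19, adjusted p = 0.000116) and EPHB4 (0.87 ± 0.14, adjusted p = 0.00192) were higher in 231BrM-2a. These are 2 of the 5, beside 12.5% of all rows called higher. Of 10 other homeobox genes of the same class, 0 were called in 231BrM-2a against MDA-MB-231 by limma, where 19.0% of all rows were called. At an unadjusted p under 0.05 there were 0, with changes from -0.24 to 0.033. In 231BoM-1833 against MDA-MB-231, 1 of these 10 was called, beside 15.8% of all rows. MEOX1, a somite patterning gene, was the 1 call in 231BoM-1833 (-0.39 ± 0.11, adjusted p = 0.0444), lost without any 1 array but bone-line replicate 2 (0.0745 to 0.2).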

How the data were processed

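The 6 arrays comprise 2 for the parental line and 2 for each derivative. Each deposited value is on the log2 scale. Per the submitters' processing notes, the authors used RMA and Expression Console, with no version named. RMA sets all arrays to 1 distribution, so a shift common to most genes cannot be seen. Of 33297 transcript clusters, 21214 carry a gene symbol in the platform annotation (19460 with 1, 1754 with several) and 12083 do not. All 6 arrays were fitted together with limma 3.58.1 in R 4.3.3, 1 mean per line, with Benjamini-Hochberg adjustment over the 21214 named rows and a threshold of 0.05. With 2 arrays a line the fit has 3 residual degrees of freedom and 6.06 prior ones, and the number of arrays limits the precision. The fit was tested on simulated data with known changes.

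The HOX members and the 11 other gene lists were chosen with earlier results of these data known. HOX rows called in any comparison and the row of highest mean in each cluster are given in full, the other HOX rows by range and count, except HOXB7, HOXD12 and HOXD13, whose array values are printed too and were chosen after they were seen. From the other lists, except the mesenchymal, luminal and other cell type ones, called genes with the 3 largest changes per comparison are named. All called TALE genes are named too. Where a gene has several rows, the row of highest mean is used. The mesenchymal, luminal and other cell type lists describe the lines and are no check of the labels, and only some of their called genes are named. Same-numbered replicates did not deviate together (correlations of deviations 0.0362, -0.162 and -0.165), so the arrays were not treated as paired. Tried as alternatives were 16 settings, 1 of them (crossed replicate numbers) chosen after the data were seen.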

Additional observations from a re-analysis of the deposited data

How the results depend on the processing

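HOXB9 was called lower in 231BrM-2a in every setting tried, with log2 changes from -1.17 to -1.08 against MDA-MB-231 and from -1.19 to -1.13 against 231BoM-1833. The count of HOX calls in 231BrM-2a against MDA-MB-231 was 4, and 2 with the dimmest 33.3% of rows left out (10 HOX rows remained) or with all clusters tested. Against 231BoM-1833 it was 3, and 1 with the dimmest rows left out or 2 with all clusters tested. Leaving out 1 array gave 0 to 1, 2 to 5 and 2 to 3 calls in the bone-parent, brain-parent and brain-bone comparisons. With the replicate number as a block (replicate block) the counts were 0, 4 and 3, and with the 231BrM-2a numbers crossed 0, 6 and 3. The 9, 12 and 15 cofactor and regulator calls became 5 and 6 in the bone-parent and brain-parent comparisons with all clusters tested, and ranged from 3 to 7, 2 to 12 and 7 to 12 with 1 array left out. In the brain-bone comparison, MEN1, EZH1, PCGF2, CBX2 and RXRA lost their calls with all clusters tested. With all 6 arrays, the 9, 12 and 15 calls came from 7 TALE, 10 activator, 13 Polycomb and 15 retinoid and CDX genes. Of all rows, 15.8%, 19.0% and 23.5% were called in the same 3 comparisons. Without the dimmest rows, the medians in the bone-parent comparison were -0.22 (HOXB), -0.26 (HOXC) and 0.049 (HOXD). That of HOXC in the brain-bone comparison was 0.16. The HOXC bone-parent median was -0.11 with quantile normalization, -0.10 with median centring and -0.18 without rows of several symbols. With 1 array left out, the bone-parent, brain-parent and brain-bone medians ran from -0.11 to -0.075, -0.44 to -0.18 and -0.30 to -0.096 in HOXB, from -0.26 to -0.041, -0.19 to -0.027 and 0.0034 to 0.037 in HOXC, and from -0.14 to 0.0068, -0.17 to -0.036 and -0.13 to 0.044 in HOXD. Fewer rows tested is part of the first alternative's own construction. Leaving out rows of several symbols removes the shared HOXC4 and HOXC6 row (0.043), and the HOXC bone-parent median is then the change of HOXC12 (-0.18). For the other shifts the cause was not tested. With 2 arrays a line and 24 HOX rows below a mean of 7, small changes in dim rows could not be resolved.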
